A study of Mus musculus with 24 samples.

Results

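The transcripts of B cells and antibody-secreting plasma cells were followed through 24 mouse tumour libraries with 7 genes out of the 55335 measured: Ighm, Igkc, Jchain, Cd79a, Cd79b, Ms4a1 and Mzb1. The genes were taken as a named list, with gene IDs matched to symbols in the GENCODE annotation of mm10. A B cell carries its antibody on its surface as the antigen receptor, in which the antibody is held by a pair of signalling chains, CD79A and CD79B. After activation it may become a plasma cell, which lowers its surface genes and devotes much of its RNA to secreted antibody. In tumours such cells can sit beside T cells, and antibody transcripts are so abundant in plasma cells that a small number of them can be visible in RNA from whole tissue.

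The RNA came from whole tumours grown in mice from the colon carcinoma line MC38 or the melanoma line B16. The injected cells of either line were CHEK2-knock out (KO) or parental CHEK2-WT (WT), and the mice received PBS or an antibody that blocks PD-1, a brake on T cells. The 8 groups of 3 libraries were thus MC38 KO anti-PD-1, MC38 KO PBS, MC38 WT anti-PD-1, MC38 WT PBS and the same 4 in B16. The knock-out lay in the tumour cells, so blood vessels and immune cells of every group came from hosts for which no Chek2 change is labelled. The labels give neither the strain and age of the mice, nor the number of knock-out clones, nor whether each library is a different animal. A p-value here therefore covers only library-to-library spread, which may be technical.

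Values were FPKM (fragments scaled to transcript length and library size), with an estimated 13.2 to 23.8 M read equivalents per library. Chek2, the edited gene, averaged 3.22 ± 0.156 FPKM in MC38 KO anti-PD-1 and 2.17 ± 0.240 in MC38 KO PBS, against 5.44 ± 0.376 in MC38 WT anti-PD-1 and 5.30 ± 0.775 in MC38 WT PBS (SD, n = 3 each). In B16 Chek2 averaged 6.42 ± 0.381 FPKM in KO anti-PD-1 and 5.66 ± 0.0218 in KO PBS, against 8.22 ± 0.936 in WT anti-PD-1 and 7.60 ± 0.389 in WT PBS, and every KO library of a line lay below every WT library of that line. The melanocyte genes Tyr, Dct, Pmel, Mlana and Mitf were high in all 12 B16 libraries, with Pmel between 1744 and 2786 FPKM there and at most 0.346 in MC38. Of the colon epithelial markers, Cdx2 was listed at 0 in all 12 MC38 libraries, Krt20 reached 0.300 FPKM, while Krt8, Krt18 and Epcam had medians of 0.602, 0.615 and 0.388 FPKM and highest values of 9.44, 13.9 and 5.59. Colon epithelial identity of the MC38 tumours therefore had little marker expression behind it. The 3 B16 KO anti-PD-1 libraries had the highest sums of FPKM of the 24, 375193 to 398474 against at most 344059 elsewhere.

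The secreted products were the strongest signals among the 7 genes. Igkc, the constant region of the kappa light chain and part of most mouse antibodies, lay at chromosome 6, 70726435 to 70726966, on the plus strand and shares this place with the gene model Gm30211 on the same strand. It had at least 1 FPKM in 22 of the 24 libraries, with a median of 10.3. Ighm, the constant region of the mu heavy chain that makes IgM, lay at chromosome 12, 113418558 to 113422730, on the minus strand, and had at least 1 FPKM in 19 libraries. Jchain, at chromosome 5, 88519809 to 88527891, on the minus strand, encodes the joining chain of IgM pentamers and IgA dimers. Jchain had at least 1 FPKM in 12 libraries and was listed at 0 in 4.

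The chains of the receptor complex were weaker. Cd79b, at chromosome 11, 106311341 to 106314762, on the minus strand, had at least 1 FPKM in 11 libraries, 10 of them MC38. Cd79a, its partner, at chromosome 7, 24897381 to 24902197, on the plus strand, had at least 1 FPKM in 1 library only. Ms4a1, the gene of the B cell surface protein CD20, at chromosome 19, 11249675 to 11266241, on the minus strand, never exceeded 0.102 FPKM. Ms4a1 was listed at 0 in 8 libraries, and in 19 of the 24 it lay below the value of 3 read equivalents, so its differences were not detectable at this depth. Mzb1, at chromosome 18, 35647267 to 35649367, on the minus strand, encodes a protein of the endoplasmic reticulum that helps assemble and secrete IgM. Its highest value was 0.913 FPKM, with 13 libraries below 3 read equivalents. Ms4a1 overlaps an annotated gene on the other strand and Mzb1 overlaps SPATA24 on the same strand, and the labels do not state whether strand was used.

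**Figure D1:**
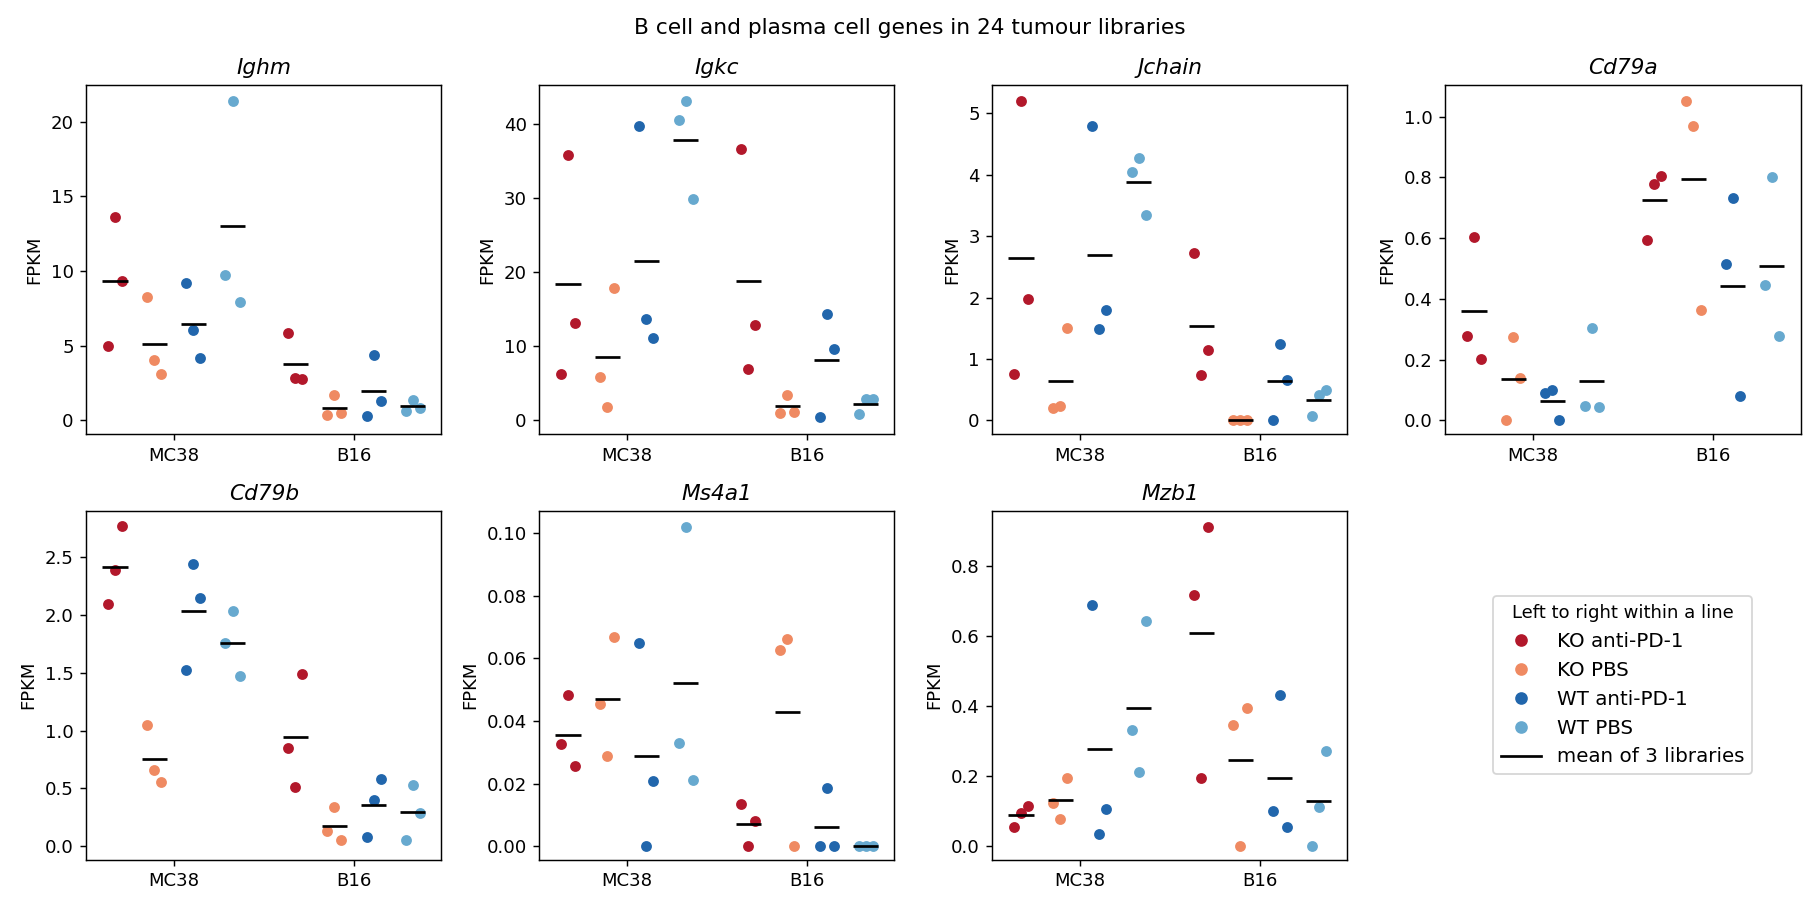
FPKM of each of the 7 genes (y axis, linear, a separate scale per gene) in each of the 24 libraries, with MC38 groups at the left and B16 groups at the right of each panel; points are libraries and bars are means of 3. Igkc and Jchain share a pattern, high in all 3 MC38 WT PBS libraries and low in B16 under PBS. The group means of Cd79a are higher in B16, with overlap of libraries, and Ms4a1 stays at or below 0.102 FPKM.

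The effect of the knock-out without antibody was asked first, in MC38. Igkc, Jchain and Cd79b were lower in KO PBS tumours than in WT PBS tumours, without overlap between the groups. How many of all tested genes lacked overlap was not counted, so the lack of overlap is a description. Igkc had 5.92, 1.81 and 17.8 FPKM in the 3 KO PBS libraries, against 40.5, 43.1 and 29.9 in the 3 WT PBS libraries. All KO values lay below all WT values, although the third KO library was far above the other two. Jchain had 0.200, 0.232 and 1.51 FPKM in KO PBS, against 4.04, 4.27 and 3.34 in WT PBS. Again the third KO library was the highest of its group. Cd79b had 1.04, 0.656 and 0.552 FPKM in KO PBS, against 1.75, 2.03 and 1.47 in WT PBS, and here the third KO library was the lowest.

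In the limma fit of all 14209 tested MC38 genes on log2(FPKM + 1), Igkc differed by -2.42 ± 0.722 (SE; adjusted p = 0.0335), Jchain by -1.65 ± 0.455 (adjusted p = 0.0242) and Cd79b by -0.66 ± 0.149 (adjusted p = 0.0102). These log2 differences understate the change of low genes, because 1 FPKM is added before the logarithm. Of the 7 genes 4 reached the filter of the fit and 3 of these were called lower at an adjusted p under 0.05, where 11.6% of all tested genes were called lower and 23.4% were called in either direction. Ighm had 8.29, 4.04 and 3.11 FPKM in KO PBS, against 9.74, 21.4 and 7.91 in WT PBS. The groups of Ighm overlapped, and its difference of -1.16 ± 0.435 did not pass (adjusted p = 0.0768); without MC38 KO PBS replicate 1 it did (-1.50, adjusted p = 0.0401). The call for Cd79b was made under all 13 alternative settings or left-out libraries. The calls for Jchain and Igkc were lost without MC38 WT PBS replicate 1 (adjusted p = 0.0584 and 0.0760), without MC38 WT PBS replicate 2 (0.0723 and 0.0931), without MC38 KO PBS replicate 1 (0.0716 and 0.0721) and without MC38 KO PBS replicate 2 (0.0779 and 0.114), and that for Igkc also without MC38 WT PBS replicate 3 (0.0598). With no filter on low values both were lost as well (0.0694 and 0.0913).

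The 3 genes under the filter were compared by the exact two-sided permutation test over libraries, which cannot go below p = 0.1 with 3 against 3. Mzb1 had 0.124, 0.0767 and 0.195 FPKM in MC38 KO PBS, against 0.333, 0.211 and 0.644 in MC38 WT PBS (exact permutation p = 0.1). Its groups did not overlap, but values of this size are near 3 read equivalents, which were worth 0.139 to 0.251 FPKM of Mzb1. Cd79a averaged 0.138 ± 0.137 FPKM in MC38 KO PBS and 0.131 ± 0.149 in MC38 WT PBS (SD, n = 3 each; exact permutation p = 1.0). The groups overlapped, and 1 of the 3 MC38 KO PBS libraries was listed at 0.

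Under anti-PD-1 none of the 4 tested genes was called between MC38 KO and MC38 WT, where 12.1% of tested genes were called. Cd79b had 2.10, 2.39 and 2.76 FPKM in KO anti-PD-1, against 1.52, 2.44 and 2.15 in WT anti-PD-1 (limma log2 difference 0.18 ± 0.149, adjusted p = 0.478). Igkc had 6.23, 35.8 and 13.1 FPKM in KO anti-PD-1, against 39.8, 13.7 and 11.1 in WT anti-PD-1. In each group 1 library was more than the sum of the other two for Igkc, and the limma difference of -0.32 ± 0.722 was smaller than its standard error (adjusted p = 0.816). Jchain (adjusted p = 0.909) and Ighm (adjusted p = 0.561) had no call either. Averaged over both treatments, where 27.4% of tested genes were called, Jchain differed by -0.88 ± 0.322 (adjusted p = 0.0651) and Igkc by -1.37 ± 0.511 (adjusted p = 0.0691), just outside the threshold. Without MC38 KO PBS replicate 3 or MC38 KO anti-PD-1 replicate 2, 2 genes, Jchain and Igkc, were called lower in that average.

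Treatment was compared next. In MC38 KO tumours Cd79b was higher under anti-PD-1 than under PBS, with the values given above, 2.42 ± 0.335 FPKM against 0.750 ± 0.259 (SD, n = 3 each). The log2 difference was 0.97 ± 0.149 (limma, adjusted p = 0.00357), the groups did not overlap, and the call was made under all 13 alternatives. It was the single called gene of the 4 tested, where 8.99% of tested genes were called and 6.12% were called higher. Igkc averaged 18.4 ± 15.5 FPKM in KO anti-PD-1 and 8.52 ± 8.32 in KO PBS, and the groups overlapped (log2 difference 1.12 ± 0.722, adjusted p = 0.395). Jchain had 0.759, 5.20 and 1.98 FPKM in KO anti-PD-1, against the KO PBS values above (log2 difference 1.04 ± 0.455, adjusted p = 0.191). Ighm had 4.99, 13.7 and 9.37 FPKM in KO anti-PD-1 (log2 difference against KO PBS 0.75 ± 0.435, adjusted p = 0.340). For each of these antibody genes the second KO anti-PD-1 library was the highest of the group.

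In MC38 WT tumours anti-PD-1 was followed by no called gene at all among the 14209 tested (0%), although 1953 had an unadjusted limma p under 0.05 and the smallest adjusted p was 0.0759. Igkc averaged 21.5 ± 15.9 FPKM in WT anti-PD-1 and 37.8 ± 7.02 in WT PBS, a log2 difference of -0.99 ± 0.722 (adjusted p = 0.585). Ighm had 9.18, 6.04 and 4.21 FPKM in WT anti-PD-1, against 9.74, 21.4 and 7.91 in WT PBS, with overlap (adjusted p = 0.427). Jchain had 4.79, 1.49 and 1.80 FPKM in WT anti-PD-1, against 4.04, 4.27 and 3.34 in WT PBS, and the first anti-PD-1 library was the highest of all 6. Whether the antibody effect differed between genotypes was tested by the interaction, in which 2.44% of genes were called. Cd79b had an interaction of 0.84 ± 0.211 (adjusted p = 0.0626), so the difference between its KO and WT responses was not called. Without MC38 KO PBS replicate 1 it was 0.95 (adjusted p = 0.0280). The interactions of Jchain (1.55 ± 0.644, adjusted p = 0.214), Igkc (2.11 ± 1.02, adjusted p = 0.287) and Ighm (1.59 ± 0.616, adjusted p = 0.184) were positive and did not pass.

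**Figure D2:**
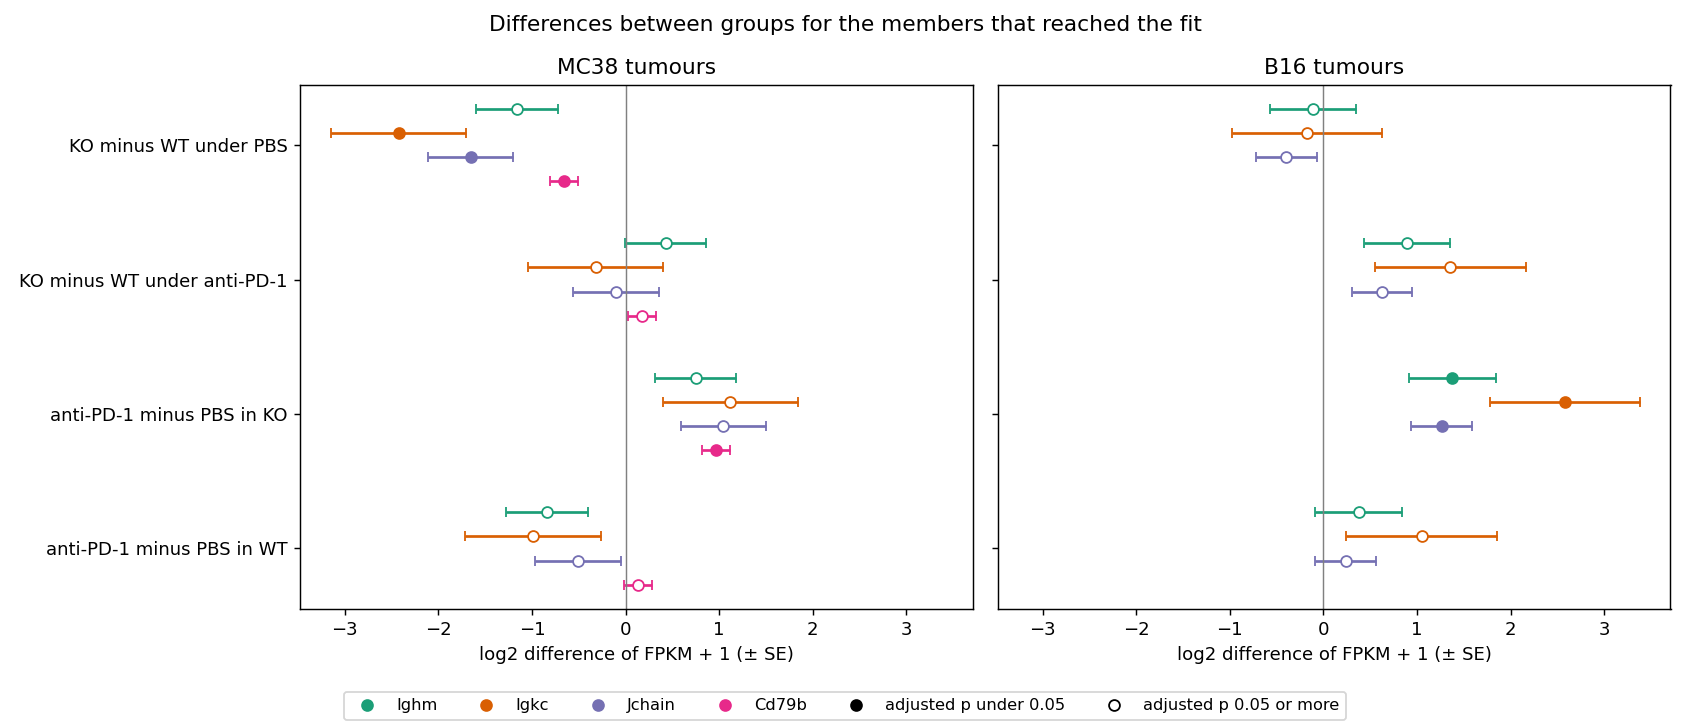
Limma log2 differences of FPKM + 1 (x axis) with standard errors for Ighm, Igkc, Jchain and Cd79b in 4 comparisons in MC38 (left) and B16 (right); filled points have an adjusted p under 0.05. The filled points are Igkc, Jchain and Cd79b below 0 for KO minus WT under PBS in MC38, Cd79b above 0 for anti-PD-1 minus PBS in MC38 KO, and Ighm, Igkc and Jchain above 0 for anti-PD-1 minus PBS in B16 KO; Cd79b did not reach the filter in B16.

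In B16 the levels were low under PBS in both genotypes. Igkc had 1.07, 3.49 and 1.10 FPKM in KO PBS, against 0.824, 2.89 and 2.95 in WT PBS. Ighm had 0.365, 1.71 and 0.517 FPKM in KO PBS, against 0.629, 1.36 and 0.840 in WT PBS. For both genes the groups overlapped. Jchain was listed at 0 in all 3 KO PBS libraries, against 0.0761, 0.414 and 0.499 FPKM in WT PBS. None of the 3 tested genes was called between KO PBS and WT PBS, where 0.470% of the 13627 tested B16 genes were called (limma adjusted p = 0.657 for Jchain, 0.954 for Igkc and 0.948 for Ighm).

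With anti-PD-1 all 3 tested antibody genes were higher in B16 KO tumours than under PBS. Igkc had 36.5 (replicate 1), 6.95 and 12.9 FPKM in KO anti-PD-1, against 1.07, 3.49 and 1.10 in KO PBS. Ighm had 5.84, 2.82 and 2.78 FPKM in KO anti-PD-1, against 0.365, 1.71 and 0.517 in KO PBS. Jchain had 2.72, 0.732 and 1.14 FPKM in KO anti-PD-1, against 3 libraries listed at 0. The groups did not overlap for any of these genes, and replicate 1 was the highest anti-PD-1 library for each. How many of all tested genes lacked overlap was not counted here either, so the lack of overlap is a description. On the log2(FPKM + 1) scale limma gave 2.58 ± 0.803 for Igkc (adjusted p = 0.0240), 1.38 ± 0.462 for Ighm (adjusted p = 0.0324) and 1.26 ± 0.323 for Jchain (adjusted p = 0.00960). All 3 were called higher, where 18.9% of tested genes were called higher and 43.9% were called in either direction. Jchain had entered the B16 fit through anti-PD-1 libraries only, since no B16 PBS library reached 1 FPKM, so its call is a description and the count of 3 supports nothing further.

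These B16 calls changed with the setting. With no filter on low values Igkc (adjusted p = 0.0693) and Ighm (adjusted p = 0.0872) were not called. Without B16 KO anti-PD-1 replicate 1 none was left: Igkc had an adjusted p of 0.0952, Ighm had 0.118, and Jchain no longer reached the filter. Without B16 KO PBS replicate 1 or B16 KO PBS replicate 3 the call for Jchain was made, and those for Igkc (0.0683 and 0.0712) and Ighm (0.0990 and 0.0914) were lost. With FPKM rescaled to equal sums over protein-coding genes, which sets aside the higher sums of the B16 KO anti-PD-1 libraries, all 3 were called. Of the genes under the filter, Cd79b had 0.845, 0.511 and 1.49 FPKM in KO anti-PD-1, against 0.134, 0.336 and 0.0513 in KO PBS, without overlap (exact permutation p = 0.1, the smallest possible). Mzb1 averaged 0.608 ± 0.372 FPKM in KO anti-PD-1 and 0.247 ± 0.215 in KO PBS (SD, n = 3 each, exact permutation p = 0.3). The other genes under the filter had lower means under anti-PD-1, with overlap. Cd79a averaged 0.726 FPKM in KO anti-PD-1 and 0.795 in KO PBS (exact permutation p = 0.8). Ms4a1 averaged 0.00718 FPKM in KO anti-PD-1 and 0.0429 in KO PBS (exact permutation p = 0.4).

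In B16 WT tumours no gene was called between anti-PD-1 and PBS (0% of 13627 in limma, 281 with an unadjusted p under 0.05). Igkc had 0.526, 14.3 and 9.58 FPKM in WT anti-PD-1, against 0.824, 2.89 and 2.95 in WT PBS. The first anti-PD-1 library was the lowest of the 6 and the other two were the highest. Jchain followed with a listed 0, then 1.25 and 0.662 FPKM in WT anti-PD-1. Ighm had 0.268, 4.37 and 1.27 FPKM in WT anti-PD-1, and again the first library was the lowest of the 6. Between B16 KO and B16 WT under anti-PD-1, where 40.8% of tested genes were called, none of the 3 was (adjusted p = 0.140 for Jchain, 0.196 for Igkc and 0.143 for Ighm). Without B16 WT anti-PD-1 replicate 2, Ighm was called higher in KO (log2 difference 1.44, adjusted p = 0.0149). The B16 interaction, with 23.5% of genes called, and the average over treatments, with 26.5%, called none of the 3; Jchain had the smallest adjusted p in the interaction (1.02 ± 0.456, adjusted p = 0.124).

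Over all groups Igkc was highest in MC38 WT PBS (37.8 ± 7.02 FPKM), followed by MC38 WT anti-PD-1, B16 KO anti-PD-1, MC38 KO anti-PD-1, MC38 KO PBS, B16 WT anti-PD-1, B16 WT PBS and B16 KO PBS (1.89 ± 1.39 FPKM). Every neighbouring pair in that order overlapped, and so did all 7 neighbouring pairs of Ighm, Cd79a, Cd79b, Ms4a1 and Mzb1. For Jchain 6 of 7 overlapped, with B16 WT PBS apart from B16 KO PBS. Between the lines, in the limma fit of 24 libraries and 15655 genes, all 4 tested genes were higher in MC38 than in B16, where 43.5% of tested genes were called higher and 79.6% in either direction. Averaged over the 4 groups of each line the log2 differences were 1.76 ± 0.240 for Ighm, 1.66 ± 0.410 for Igkc, 1.02 ± 0.208 for Jchain and 0.92 ± 0.0944 for Cd79b (adjusted p = 1.26e-06, 0.00105, 0.000165 and 2.28e-08). Cd79b had passed the filter through MC38, with 10 MC38 libraries and 1 B16 library at 1 FPKM or more, and Cd79a was under it, so the count of 4 is a description. The tumour line cannot be told apart from the experiment it was grown and sequenced in.

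Cd79a ran the other way in its group means, 0.443 to 0.795 FPKM in B16 and 0.0635 to 0.361 in MC38. This difference between lines was not tested. Cd79a had 0.594, 0.780 and 0.804 FPKM in B16 KO anti-PD-1 and 1.05, 0.969 and 0.365 in B16 KO PBS. It had 0.515, 0.731 and 0.0820 FPKM in B16 WT anti-PD-1 and 0.447, 0.802 and 0.279 in B16 WT PBS. The highest of the 12 MC38 values was 0.605, so the lines overlapped. Its partner Cd79b had at most 1.49 FPKM in B16 and up to 2.76 in MC38. In B16 KO PBS all 3 libraries therefore had more Cd79a than Cd79b, and in MC38 KO anti-PD-1 all 3 had more Cd79b than Cd79a. Between MC38 KO anti-PD-1 and MC38 WT anti-PD-1, Cd79a averaged 0.361 ± 0.214 against 0.0635 ± 0.0552 FPKM, without overlap (SD, n = 3 each; exact permutation p = 0.1). Cd79a was below 3 read equivalents in 7 of the 24 libraries.

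Promoter windows from the RefSeq table of GRCm38.p6 were examined for only 2 of the 7 genes, Jchain and Cd79a. Their windows, from 250 bases before the RefSeq start to 50 after it, are shown because the group means of Jchain were led by MC38 and those of Cd79a by B16. The windows are chr5:88527848-88528147 on the minus strand and chr7:24897247-24897546 on the plus strand, written 5′ to 3′ in the direction of the gene, with capitals marking the E-box CAGGTG, a motif bound by E proteins, on either strand.
Jchain: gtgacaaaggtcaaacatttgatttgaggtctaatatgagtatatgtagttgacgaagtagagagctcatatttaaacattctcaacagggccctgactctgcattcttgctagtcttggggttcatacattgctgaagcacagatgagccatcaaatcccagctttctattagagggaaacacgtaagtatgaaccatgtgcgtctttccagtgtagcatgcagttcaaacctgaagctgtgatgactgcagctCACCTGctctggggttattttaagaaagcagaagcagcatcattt
Cd79a: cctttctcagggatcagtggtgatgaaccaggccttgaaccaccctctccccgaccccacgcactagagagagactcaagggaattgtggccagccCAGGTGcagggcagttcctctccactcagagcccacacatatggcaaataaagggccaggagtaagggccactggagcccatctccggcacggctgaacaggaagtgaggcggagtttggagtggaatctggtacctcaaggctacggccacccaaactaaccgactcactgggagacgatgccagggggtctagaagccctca
Jchain held the motif on the opposite strand, as CACCTG, beginning 5 bases after the RefSeq start, and Cd79a held it on the gene's strand at position -154 from the RefSeq start. The RefSeq starts differ from the GENCODE starts given with each gene above. Of 32851 promoter windows of the same length 20.2% held CAGGTG. Neither window held the octamer ATGCAAAT (in 1.74% of all windows) or the E-box CAGCTG (16.3%), searched on both strands. A match is a description of these letters and no evidence of binding.

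The make-up of the antibody transcripts was compared by class. The share of Ighm in the summed FPKM of the 8 heavy-chain constant genes was 77.9%, 83.6% and 29.97% in MC38 KO PBS, against 37.1%, 65.1% and 46.9% in MC38 WT PBS. Igha, the constant region of IgA, took 4.48%, 5.94% and 28.8% in MC38 KO PBS, against 35.5%, 15.8% and 22.4% in MC38 WT PBS. The first 2 MC38 KO PBS libraries were thus mostly Ighm and the third was not, and the groups overlapped for both shares (exact permutation p = 0.5 for Ighm). Igkc per Ighm, a ratio of FPKM, was 0.714, 0.448 and 5.73 in MC38 KO PBS, against 4.16, 2.01 and 3.78 in MC38 WT PBS. The low kappa signal of the first 2 KO libraries was therefore not matched by an equally low Ighm. In B16, Igha took 39.1%, 15.4% and 27.9% in KO anti-PD-1, against 5.15%, 4.24% and 0% in KO PBS, without overlap (exact permutation p = 0.1). The KO PBS shares rest on Igha values of only 0.0598, 0.105 and 0 FPKM and are uncertain. Genes of the gamma and lambda chains have near-identical copies, so shares among them are uncertain.

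**Figure D3:**
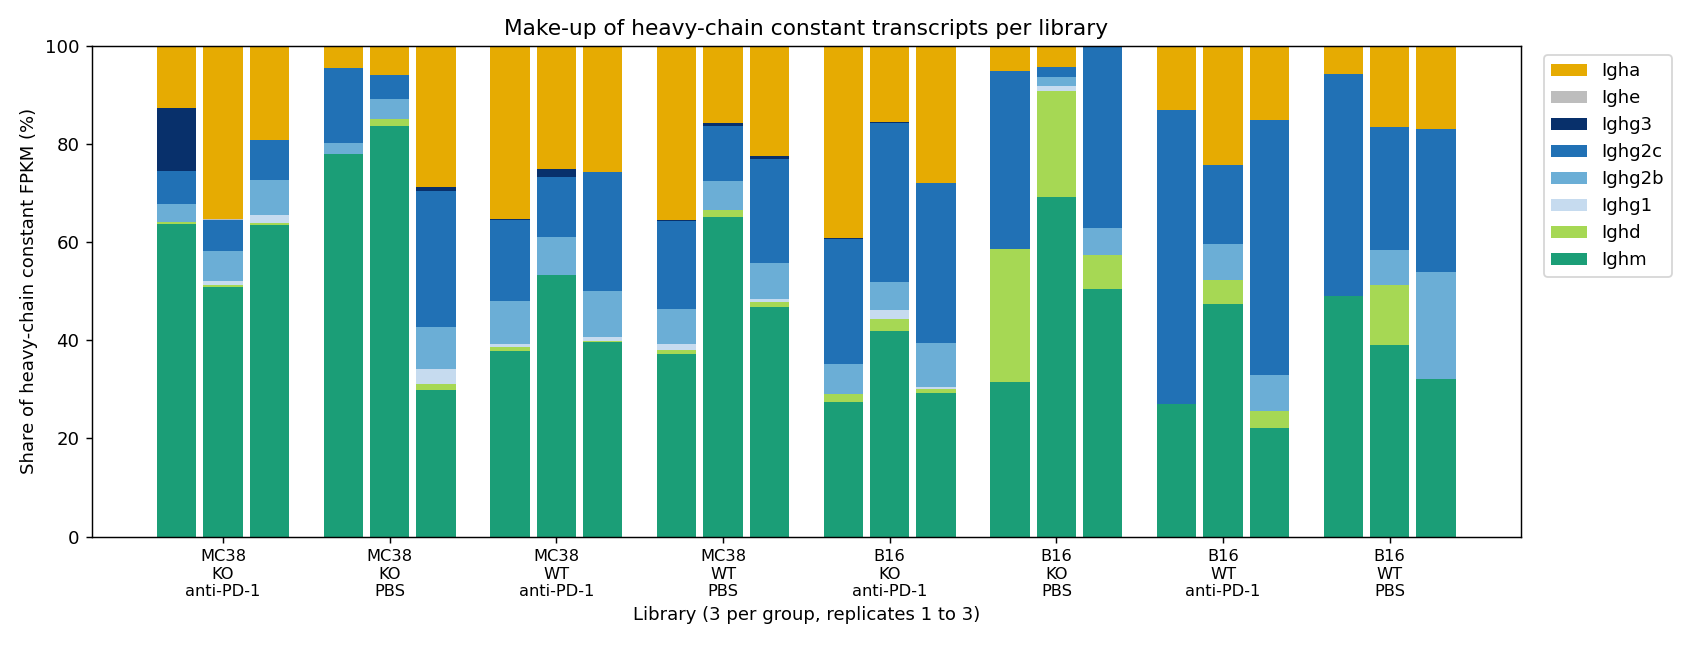
Share of each of the 8 heavy-chain constant genes in their summed FPKM (y axis, percent) in each library, 3 bars per group. Ighm made up 77.9% and 83.6% in the first 2 MC38 KO PBS libraries, and Igha was 0% to 5.15% in B16 KO PBS against 15.4% to 39.1% in B16 KO anti-PD-1. Shares in B16 KO PBS are uncertain, with Igha at most 0.105 FPKM there.

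Antibody variable segments, which the list of 7 genes did not use, were counted per library. Of 100 annotated kappa variable segments, 11, 7 and 37 were above 0 FPKM in MC38 KO PBS, against 31 to 55 in MC38 WT PBS. Of 113 heavy-chain segments, 8, 5 and 33 were above 0 in MC38 KO PBS, against 27 to 44 in MC38 WT PBS. The third KO library, the highest of its group for Igkc and Jchain, lay within the WT range for both counts and the first 2 below it. In B16, 30 to 56 kappa segments were above 0 in KO anti-PD-1, against 1 to 10 in KO PBS, and 14 to 44 heavy-chain segments, against 2 to 4. Neither pair of groups in B16 overlapped. The number of segments above 0 moves with the amount of antibody RNA and with depth. In the limma fit 19 of the 218 variable segments could be tested in MC38, and 2 were called lower and none higher for KO against WT under PBS, a share near the 11.6% of all tested genes called lower there. Averaged over both treatments, 6 of the 19 were called lower in MC38 KO and none higher. In that average 1987 of 14209 tested genes were called lower and 27.4% in either direction. These counts are a description. The segments with the highest mean were Iglv1 (2.06 FPKM over 24 libraries), Igkv10-96 (1.10) and Igkv1-110 (1.06). In MC38 WT PBS replicate 2, Igkv1-110 had 10.6 FPKM, against 1.73 and 0.555 in the other two, and this was also the library with the highest Ighm.

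**Figure D4:**
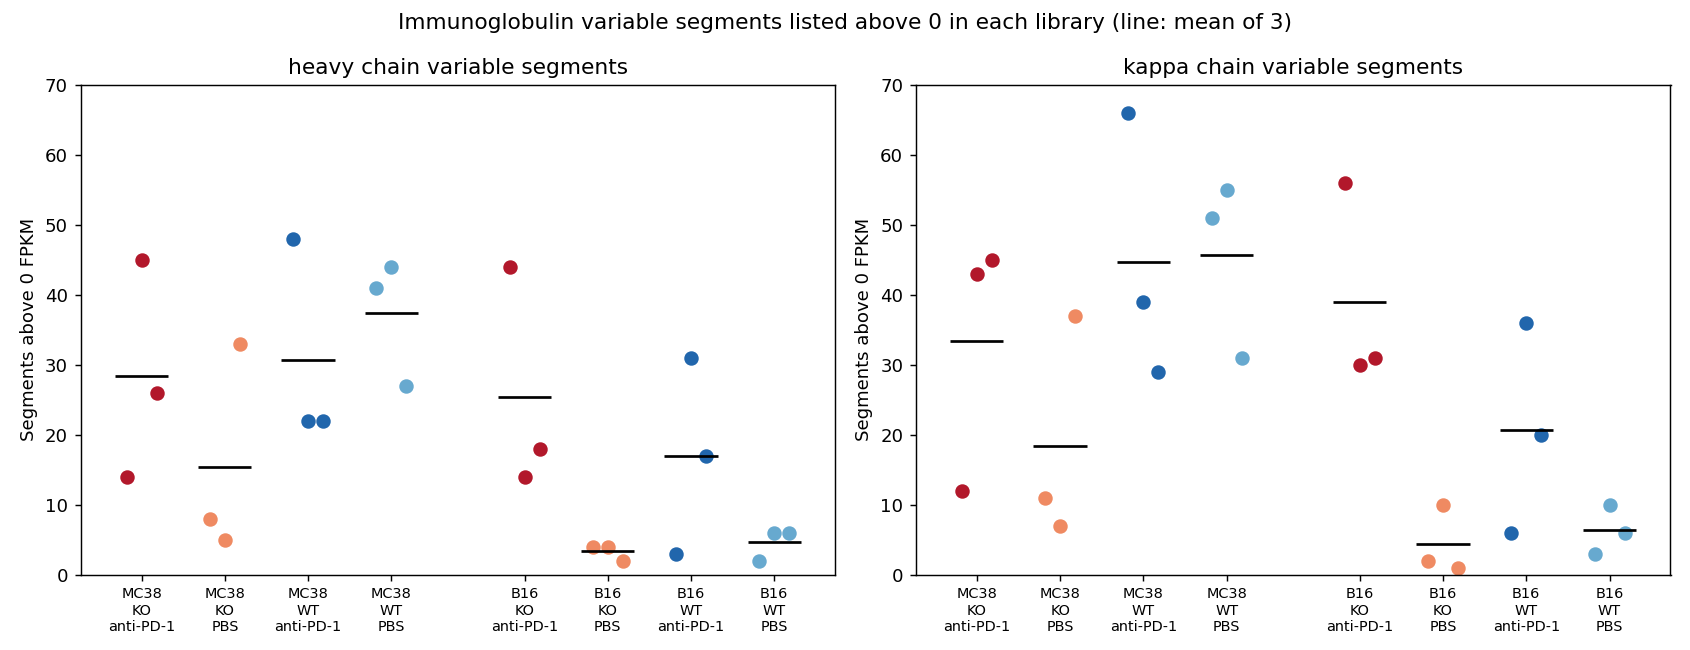
Number of heavy-chain (left) and kappa (right) variable segments listed above 0 FPKM in each library (points) with the mean of 3 (bars), by group. B16 KO anti-PD-1 libraries had 14 to 44 heavy-chain segments and B16 KO PBS libraries 2 to 4; MC38 KO PBS had 5 to 33 and MC38 WT PBS 27 to 44.

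Other genes of the B cell pathway were taken from fixed lists. Of all tested genes 11.6% were called lower in MC38 KO PBS against WT PBS. For MC38 KO against WT under PBS, 6 of 17 B lineage surface and transcription genes could be tested, and 3 were called lower and none higher, with a median of -0.59 against 0.01 over all tested genes. Ebf1, a transcription factor of early B cell development that is also expressed in stromal cells, averaged 2.64 ± 0.515 FPKM in MC38 KO PBS and 6.12 ± 0.893 in MC38 WT PBS (SD, n = 3 each; limma adjusted p = 0.00147). Cd22, an inhibitory co-receptor, averaged 0.329 ± 0.0611 FPKM in MC38 KO PBS and 1.43 ± 0.207 in MC38 WT PBS (adjusted p = 0.00348). Cd22 reached 1 FPKM in the 3 MC38 WT PBS libraries and 1 MC38 KO anti-PD-1 library only, so it had passed the filter through the group where it was high, and the count of 3 and the median are a description. Cd37, a leukocyte tetraspanin, differed by -0.60 ± 0.169 (adjusted p = 0.0267). In MC38 8 of the 17 were under 0.5 FPKM in all 12 libraries, among them Pax5, a defining transcription factor of B cells, named after its values were seen. Pax5 was listed at 0 in 2 of 24 libraries and never exceeded 0.164 FPKM.

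Among 13 genes of B cell receptor signalling, 5 were called lower and none higher in MC38 KO PBS against WT PBS (median -0.41). Of all tested genes 11.6% were called lower there. Fcgr2b, the inhibitory Fc receptor, differed by -1.03 ± 0.186 (adjusted p = 0.00341), Ptpn6 by -0.82 ± 0.233 (adjusted p = 0.0269), and Lyn, named after its values were seen, by -0.56 ± 0.171 (adjusted p = 0.0374). These genes are also expressed by macrophages and other myeloid cells. The count was 2 without MC38 WT PBS replicate 1, without MC38 WT PBS replicate 2 or without MC38 KO PBS replicate 2, 3 without MC38 KO PBS replicate 3, and 9 without MC38 KO PBS replicate 1. Of the 4 tested constant regions outside the 7 genes, Ighg2b was called lower (-0.93 ± 0.288, adjusted p = 0.0393), and Igha (-1.78 ± 0.624, adjusted p = 0.0618), Iglc1 (-1.18 ± 0.401, adjusted p = 0.0558) and Ighg2c (-1.09 ± 0.390, adjusted p = 0.0647) were not. That count was 0 without MC38 WT PBS replicate 1, MC38 WT PBS replicate 2, MC38 KO PBS replicate 1 or MC38 KO PBS replicate 2, and 4 without MC38 KO PBS replicate 3.

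The plasma cell and secretory list did not move as a group in MC38 KO PBS against WT PBS, with 1 of 11 tested genes called higher, Creld2, named after its values were seen, 1 called lower, Slamf7 (-0.73 ± 0.222, adjusted p = 0.0352), and a median of 0.00. Slamf7 is a surface receptor also found on natural killer and myeloid cells. Without MC38 WT PBS replicate 1, MC38 WT PBS replicate 2 or MC38 KO PBS replicate 2 neither was called, and 1 was without MC38 WT PBS replicate 3 or MC38 KO PBS replicate 3. The secretory genes of this list are expressed by many cell types, while Tnfrsf17, the plasma cell receptor BCMA, named after its values were seen, was under 0.5 FPKM in all libraries of both lines. Of 10 tested genes of B cell attraction, survival and help, 5 were called lower (median -0.43), against 11.6% of all tested genes. Among them were Ltb, the lymphotoxin beta chain (-1.37 ± 0.267, limma adjusted p = 0.00507), and the chemokine receptor Cxcr4 (-0.68 ± 0.179, adjusted p = 0.0194). That count was 1 without MC38 WT PBS replicate 2 or MC38 KO PBS replicate 3, 2 without MC38 WT PBS replicate 1 or MC38 KO PBS replicate 2, and 3 without MC38 WT PBS replicate 3. Of the 3 tested genes of germinal centres and class switching none was called.

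Markers of other cells moved in the same comparison, in which 11.6% of all tested genes were called lower. All 11 tested T cell genes of 13 listed were called lower in MC38 KO PBS than in WT PBS, with a median of -1.24, and their sum was 5.52 to 9.69 FPKM in KO PBS, against 41.1 to 57.03 in WT PBS. All 4 leukocyte genes were called lower (Ptprc, which encodes CD45, by -0.93 ± 0.255, adjusted p = 0.0237), with sums of 47.5 to 93.6 FPKM in KO PBS, against 107 to 125 in WT PBS, with 2 of them called without MC38 WT PBS replicate 1 or 2 and 0 with all 24 libraries in the fit. Of 7 macrophage and monocyte genes 2 were called lower, with sums of 298.1 to 672 FPKM in KO PBS, against 902 to 1132 in WT PBS; that count was 1 without MC38 WT PBS replicate 1, MC38 KO PBS replicate 2 or MC38 KO PBS replicate 3, 5 without MC38 KO PBS replicate 1 and 0 with all 24 libraries in the fit. In whole tissue fewer cells of a type and less RNA per cell cannot be told apart, and the part of all leukocytes in the antibody gene differences was not tested. Of the plasmacytoid dendritic cell list 6 of 10 genes were tested, 1 was called higher in MC38 KO PBS, Cox6a2 (2.05 ± 0.236, adjusted p = 0.000345), and none lower, while 3 of the 10 and all 4 genes of lymph node stroma and vessels were under 0.5 FPKM in all libraries. Siglech of that list, named after its values were seen, had 0.132, 0.0518 and 0.239 FPKM in MC38 KO PBS. In MC38 WT PBS Siglech had 0.196, 0.319 and 0.351 FPKM, so the groups overlapped. The call of Cox6a2 therefore describes that gene and not the list. Krt14 of the keratinocyte list averaged 21.03 ± 6.22 FPKM in MC38 KO PBS and 3.63 ± 0.507 in MC38 WT PBS. The other tested gene of that list, Krt10, was not called (0.26 ± 0.388, limma adjusted p = 0.670). Krt5, Krt1, Lor and Dsg1a, named after their values were seen, were at most 0.218 FPKM in both groups.

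Set against Ptprc, the genes parted. Cd79b per Ptprc, a ratio of FPKM, averaged 0.135 ± 0.0194 in MC38 KO anti-PD-1, 0.154 ± 0.0497 in MC38 KO PBS, 0.165 ± 0.0408 in MC38 WT anti-PD-1 and 0.170 ± 0.0204 in MC38 WT PBS (SD, n = 3 each), with overlap in all 4 comparisons. Igkc per Ptprc was 0.736, 0.335 and 6.83 in MC38 KO PBS, against 3.45, 4.04 and 3.42 in MC38 WT PBS. The first 2 KO libraries lay below all WT libraries in this ratio and the third above them, where Ptprc was lowest (2.61 FPKM). Ighm per Ptprc was lower under anti-PD-1 than under PBS in both MC38 genotypes, with 0.507 ± 0.187 in KO anti-PD-1 against 0.990 ± 0.224 in KO PBS and 0.522 ± 0.196 in WT anti-PD-1 against 1.25 ± 0.659 in WT PBS. Neither pair overlapped (exact permutation p = 0.1 for each, the smallest possible). Ighm itself averaged 9.34 FPKM in MC38 KO anti-PD-1 against 5.15 in KO PBS, and 6.48 in WT anti-PD-1 against 13.02 in WT PBS. The lower ratio thus went with a higher mean of Ighm in KO and a lower one in WT. In B16 KO tumours Ighm per Ptprc averaged 2.18 ± 0.592 under anti-PD-1 and 1.51 ± 0.883 under PBS, and Cd79b per Ptprc 0.548 ± 0.256 and 0.306 ± 0.187 (SD, n = 3 each), with overlap for both (exact permutation p = 0.3 for each). Igkc per Ptprc was there 17.3, 5.45 and 7.31 under anti-PD-1, against 2.42, 5.13 and 2.57 under PBS, without overlap (exact permutation p = 0.1). Jchain per Igkc was 0.122, 0.145 and 0.151 in MC38 KO anti-PD-1, 0.0338, 0.128 and 0.0846 in MC38 KO PBS, 0.120, 0.108 and 0.162 in MC38 WT anti-PD-1 and 0.0997, 0.0991 and 0.112 in MC38 WT PBS.

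**Figure D5:**
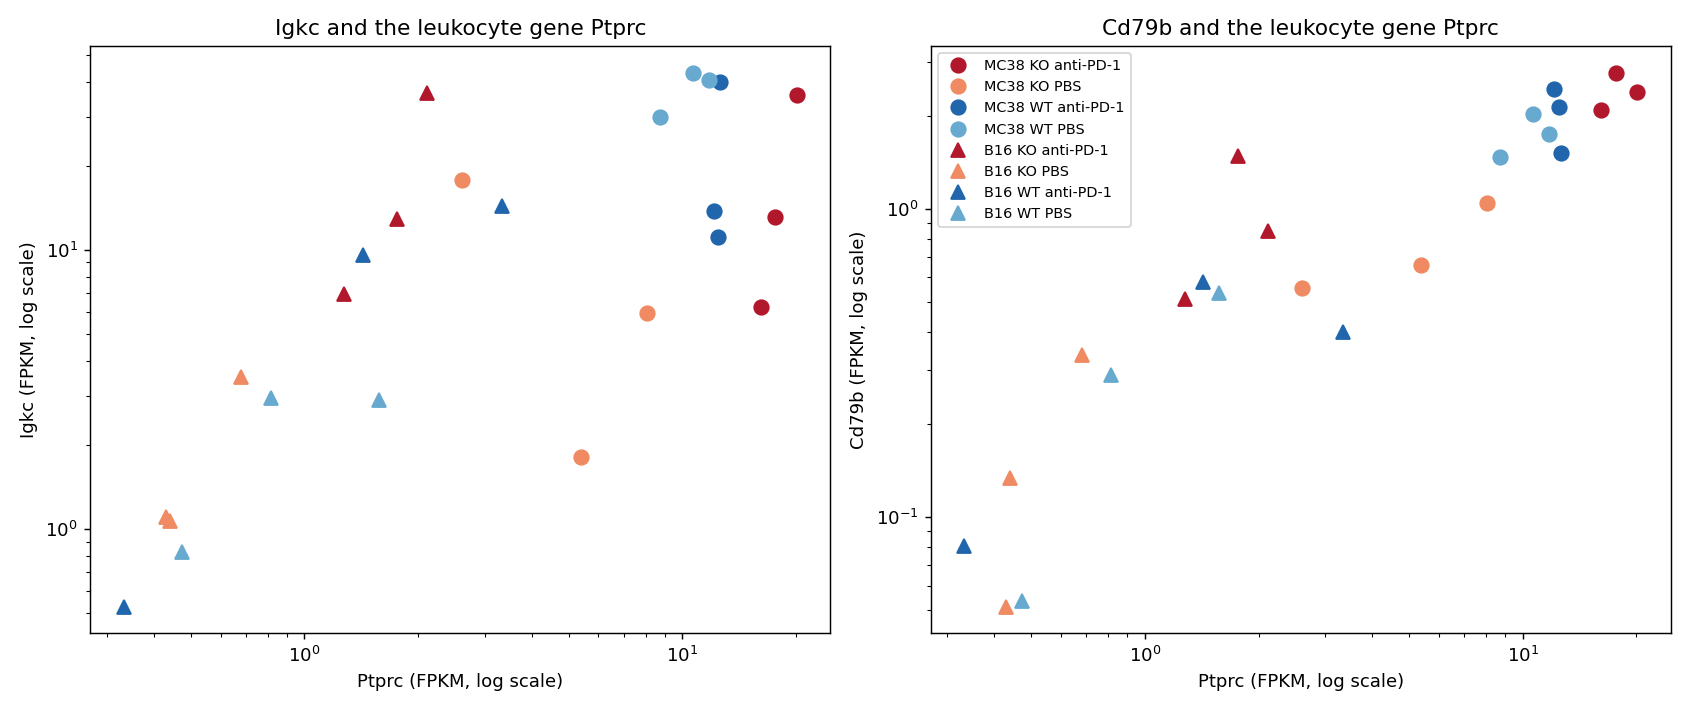
Igkc (left) and Cd79b (right) against Ptprc in the 24 libraries, all in FPKM on log axes; circles are MC38, triangles B16, colours groups. In MC38 Cd79b runs along with Ptprc, while Igkc spreads between 1.81 and 43.1 FPKM in MC38.

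The order of libraries within a group was compared between genes. Igkc and Jchain were highest in the same library in 7 of 8 groups and Ighm and Igkc in 6, whereas Igkc and Cd79b shared their highest library in 2 and Jchain and Cd79b in 1. Ighm shared its highest library with the leukocyte gene Ptprc and with the T cell gene Trac in 7 groups each, so a shared order was not limited to antibody genes. In MC38 KO PBS the third library was highest for Igkc and lowest for Ighm. Jchain, at 0 in every B16 KO PBS library, had no highest library there. Cd79b and Ptprc were lowest in the same library in 7 of 8 groups but highest in the same library in 3, and Igkc and Cd79b were lowest together in 5. The genes most like each of the 4 genes over the 12 MC38 libraries, by Pearson's r of log2(FPKM + 1) among 11596 genes, are given as a description, since the libraries share groups, depth and leukocyte content. Cd79b was closest to Pik3r5 (r = 0.976), Fermt3 (0.963) and Spn (0.963), Jchain to Fam102a (0.957), Apol7e (0.928) and Plet1 (0.907), Igkc to Arhgef1 (0.913), Apol7e (0.881) and Acadvl (0.877), and Ighm to Tmco4 (0.896), March2 (0.880) and Crip1 (0.875). Apol7e was thus named for both Igkc and Jchain.

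Several of these lists had genes called higher under anti-PD-1 in MC38 KO tumours, where 6.12% of all tested genes were called higher. Against PBS, 3 of 6 B lineage genes were called higher and none lower (median 0.88 against -0.02 over all tested genes), as were 10 of 13 receptor signalling genes (median 0.89), 5 of 10 genes of attraction, survival and help (median 0.98), all 11 T cell genes (median 1.29) and all 4 leukocyte genes (median 1.17; 1 of them with all 24 libraries in the fit). None of the 4 other constant regions and none of the 3 germinal centre genes was called, and 2 of 11 plasma cell and secretory genes were called higher (median 0.13). The B lineage genes that rose were Cd37, Cd180 and, named after its values were seen, Cd72, while Ebf1 was not called (-0.06 ± 0.147, adjusted p = 0.844). The B lineage count was 1 without MC38 KO anti-PD-1 replicate 2 or 3, and that for attraction, survival and help was 3 without MC38 KO PBS replicate 2 or of MC38 KO anti-PD-1 replicate 2. No list had a called gene in the WT tumours of MC38. In B16 KO tumours the 2 tested constant regions were both called higher under anti-PD-1, Igha by 1.96 ± 0.490 (limma adjusted p = 0.00853) and Ighg2c by 1.78 ± 0.321 (adjusted p = 0.00151). No B16 PBS library reached 1 FPKM of either, so both had passed the filter through anti-PD-1 libraries and their calls are a description. Of all tested genes 18.9% were called higher in B16 KO under anti-PD-1 and 43.9% were called in either direction. Of the B lineage genes 2 of 3 tested were called higher there, and of the receptor signalling genes 6 of 10. Some of them, such as Btk, had no B16 PBS library at 1 FPKM. With equal protein-coding sums these counts were 1 and 2, and without B16 KO anti-PD-1 replicate 1 they were 0 and 2, as they were without B16 KO PBS replicate 3. There 3 of 4 leukocyte genes were called higher, with sums of 36.1 to 96.0 FPKM in B16 KO anti-PD-1, against 8.16 to 16.7 in B16 KO PBS. The 13 T cell genes summed to 11.4 to 37.8 FPKM in B16 KO anti-PD-1, against 0.829 to 2.54 in B16 KO PBS, and 6 of them reached the filter, chiefly through anti-PD-1 libraries. Their part in the antibody gene differences was not tested.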

How the data were processed

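Total RNA of whole tumours was extracted with Trizol and sequenced with Illumina libraries, per the labels' protocols. The submitters' processing notes name FastQC, STAR 2.5, Cuffnorm and DESeq, beside the build mm10, without saying what each was used for; aligner settings, strand and read length are not given in the sources used here. The deposited values were taken as FPKM, 1 column per library for the same 55335 gene IDs, of which 55154 matched the GENCODE annotation; their normalization across libraries is not given in the sources used here. Depth, 13.2 to 23.8 M read equivalents, was estimated from where value times transcript length piles up in genes with 1 transcript, since the files hold no counts.

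Groups came from the labels' condition field, and replicate numbers only name libraries in accession order. Within a line, a gene was tested if 3 or more of the 12 libraries reached 1 FPKM, on log2(FPKM + 1) with limma 3.58.1 in R 4.3.3 (1 mean per group, variances moderated with a trend, Benjamini-Hochberg adjustment over all tested genes, threshold 0.05), and likewise over 24 libraries for the comparison of lines. Genes under the filter had exact two-sided permutation tests in Python 3.11.15, not adjusted. The steps were tested on simulated data. Alternatives were a pseudocount of 0.1, no filter, equal protein-coding sums, quantile normalization, other sets of libraries in the fit, no trend and each library left out. No 2 libraries shared more than 0.03% of their nonzero values. The 7 genes, the lists and the tests were chosen with earlier results of these data known. Named genes were the 7, the 4 of each list with the largest difference in MC38 KO against WT under PBS, the 3 most similar genes per tested gene and the 3 highest variable segments; others are marked where they appear.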

Additional observations from a re-analysis of the deposited data

How the results depend on the processing

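No paired analysis was possible because the titles carry no replicate number shared between groups. Each single-gene result was checked once under each alternative that gave it a value. Of these checks, 674 kept direction and side of the threshold, 19 lost and 9 gained a call and 14 changed sign. The number of the 7 genes called in MC38 KO against WT under PBS, 3 as reported, was 1 with no filter and 1 to 3 with 1 library left out. In B16 KO under anti-PD-1 against PBS, 3 as reported, it was 0 to 3 with 1 library left out. Averaged over treatments in MC38 it was 1 in place of 0 with a pseudocount of 0.1 and with all 24 libraries in the fit, and 0 to 2 with 1 library left out. It was 0 to 1 with 1 library left out for the MC38 interaction and for B16 KO against WT under anti-PD-1, and 1 for B16 KO against WT under anti-PD-1 with all 24 libraries in the fit. The sign changes were in uncalled results. With 1 library left out, MC38 KO minus WT under anti-PD-1 ran from -0.94 to 0.24 for Igkc and from -0.58 to 0.33 for Jchain. B16 KO minus WT under PBS ran from -0.42 to 0.078 for Ighm and from -0.54 to 0.018 for Igkc. B16 anti-PD-1 minus PBS in WT ran from -0.18 to 0.86 for Ighm, and B16 KO minus WT over treatments from -0.043 to 0.23 for Jchain, where a pseudocount of 0.1 gave -0.16. The causes were not tested. Jchain did not reach the filter in some smaller B16 fits, which gave no value. Depth limits Ms4a1, Mzb1 and Cd79a, below 3 read equivalents in 19, 13 and 7 of 24 libraries.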
